A study of Mus musculus with 4 samples.

Results

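Genes of the adrenergic and cAMP signalling pathway were examined in brown adipose tissue (BAT) of Tsku knockout (KO) and wild-type (WT) mice. The members are the genes for adrenergic receptors, the stimulatory G protein subunit, adenylyl cyclases, protein kinase A (PKA) and its anchoring proteins, the cAMP-activated exchange factors, the cyclic nucleotide phosphodiesterases and the CREB transcription factors with their coactivators, chosen by gene symbol. Of 22180 genes with a probe set of 1 listed symbol, 67 were members, and each was read from its probe set with the highest mean. The groups were 2 KO samples and 2 WT samples, each with 1 whole-transcript array. All samples came from males of strain C57BL/6 at an age of 4 months, and both genotypes ate chow. Tsku encodes tsukushi, a secreted small leucine-rich proteoglycan. How the Tsku allele was made is not given in the sources used here, and no listed probe set names Tsku, so the genotypes rest on the labels.

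Brown fat makes heat when noradrenaline from sympathetic nerves binds beta adrenergic receptors on brown adipocytes. The receptors act through the G protein Gs on adenylyl cyclases, which make cAMP, and cAMP frees the catalytic subunits of PKA from the regulatory subunits that hold them inactive. PKA then releases fatty acids through the lipolysis enzymes and induces thermogenic genes, partly through CREB bound to the cAMP response element (CRE), while phosphodiesterases break cAMP down and anchoring proteins hold PKA at particular membranes.

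Values are taken as log2 expression values, and a difference is the KO mean minus the WT mean on that scale. The deposited values lie below the range that the RMA method usually gives, by an offset whose origin is not given in the sources used here, so levels near or below 0 occur and carry no absolute meaning. A probe set is called above background on an array where it exceeds 95% of the 1400 probe sets for odorant and pheromone receptors, which brown fat is not known to use. This limit lay between 0.63 and 0.81 on the 4 arrays. Levels of different probe sets are not comparable, so genes are described by their own values and by whether they exceed background. The labels speak of biological replicates but not of separate animals, so each p-value rests on a spread between samples that could be technical. The tissue label was borne out by its markers, with 9 of 11 brown adipocyte genes above background on all 4 arrays and Ucp1 at 9.99 and 10.001 in KO against 9.52 and 9.38 in WT. Markers of several cell types were not even across the arrays, and their part in the differences of members was not tested. Brown adipocyte markers were higher in KO in 10 of 11 genes, with summed linear signals of 2529 and 2554 in KO against 2113 and 1966 in WT. General adipocyte markers were higher in 8 of 10, with sums of 4505 and 4361 in KO against 3918 and 4024 in WT. Fibroblast and progenitor markers were lower in 6 of 7. Skeletal muscle markers were lower in KO in 24 of 24 genes, and their summed linear signal was 264.1 and 114.3 in KO against 383.8 and 620.8 in WT. Macrophage markers were lower in 13 of 13 genes, with sums of 150.7 and 276.9 in KO against 266.6 and 279.1 in WT. Liver markers were higher in 11 of 12, with sums of 94.1 and 45.6 in KO against 36.0 and 26.3 in WT. Of these 12, 5 were above background on all 4 arrays. Alb weighed most in the sums, at 5.77 and 4.41 in KO against 3.68 and 2.87 in WT. Of 11 sympathetic neuron markers, 8 were higher and 3 lower in KO, but 9 were above background on no array, Th among them. Only Stmn2 was above it on all arrays, at 1.59 and 1.82 in KO against 0.74 and 0.91 in WT. Nerve supply was not measured. In whole tissue, fewer cells of a type and less RNA per cell cannot be told apart.

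Most of the 67 members were detectable, and no member differed between the genotypes past the threshold. Of them, 46 (68.7%) exceeded background on both arrays of at least 1 genotype, and 42 did so on all 4 arrays. With limma and Benjamini-Hochberg adjustment over all genes, 0 members had an adjusted p under 0.05, and the lowest member value was 0.872. The same test called 0 of 22180 genes (0%). At an unadjusted p under 0.05 there was 1 member higher in KO, Pde11a, where 2.89% of all genes were, and 1 lower, Prkar2a, where 2.67% of all genes were. Together that is 2.99% of the members, where 5.56% of all genes had such a p. The median log2 difference was 0.04 over the members and 0.02 over all genes tested. In KO 37 members (55.2%) were higher and 30 lower, where 52.6% of all genes were higher. Among the 46 above background, 22 were higher and 24 lower.

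The precision differed between members. The 95% interval of the log2 difference had a median half-width of 0.57 over the 46 members above background, the narrowest being 0.44 and the widest 1.07. Of these 46 intervals, 31 lay wholly between -1 and 1, so a doubling or halving of signal lay outside them, and the other 15 reached past that range. A total of 32 of the 46 had a difference under 0.3 in size, and 41 a difference under 0.5.

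**Figure D1:**
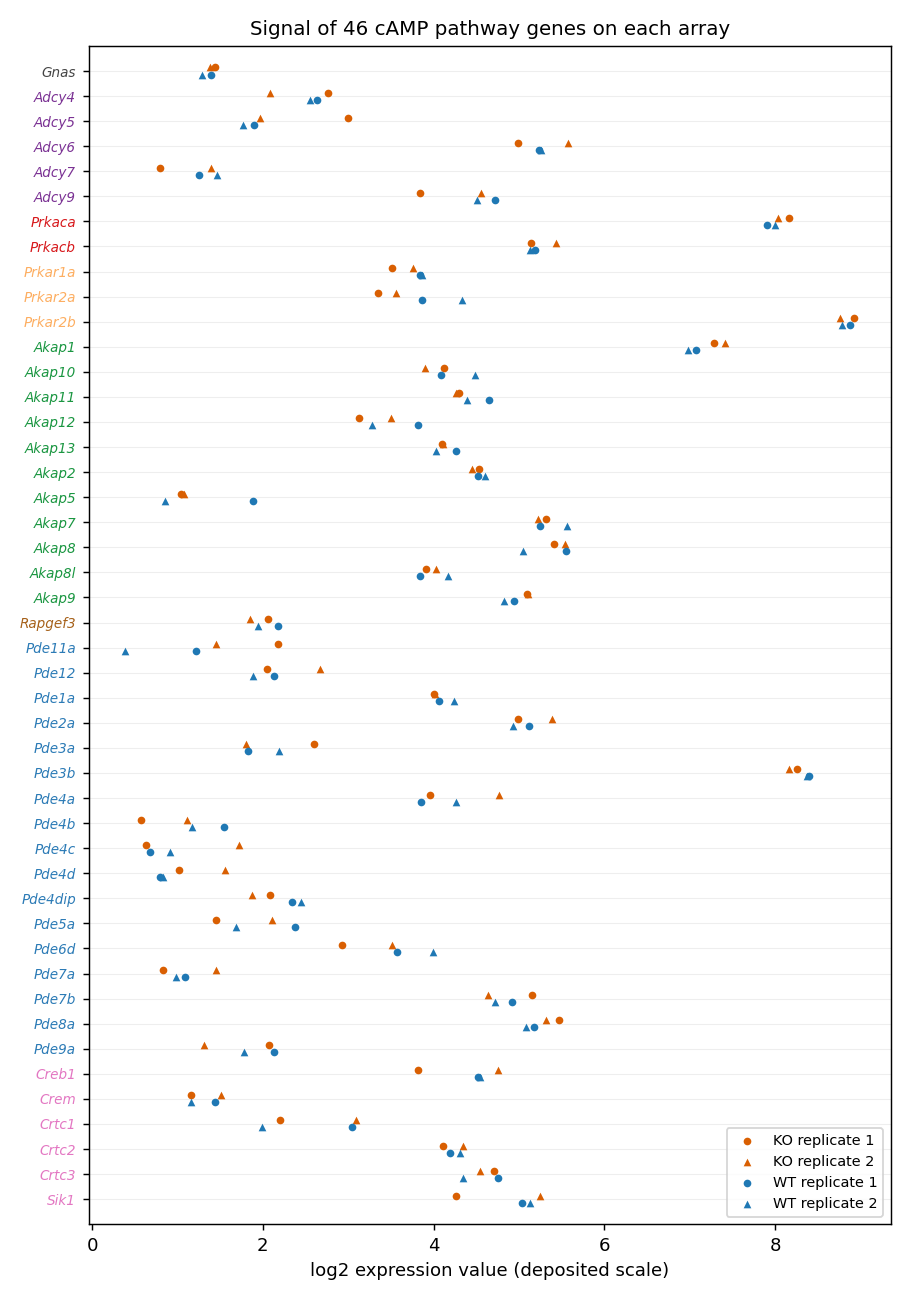
Log2 expression value (horizontal axis, deposited scale) of the 46 members above background on both arrays of at least 1 genotype, with KO arrays in orange above WT arrays in blue and circles for replicate 1, triangles for replicate 2. Genes are coloured by family. KO and WT arrays overlap in 31 of the 46 rows, where they do in 6799 of all 11023 genes above background.

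At the receptor end, few members could be read. The adrenergic receptors in the table were Adra1b, which couples to Gq, and Adra2c, which couples to the inhibitory protein Gi, and neither exceeded background on any array. Adra1b read 0.34 and 0.28 in KO against -0.14 and -0.03 in WT. Both KO values were above both WT values, but all lay within the range of the receptor probe sets used as background. Adra2c read 0.15 and -0.04 in KO against 0.14 and -0.09 in WT. Other adrenergic receptors, the beta receptors at the start of the pathway included, were not analysed here, so no count of members covers them. Gnas, the Gs alpha subunit, was read from a probe set little above background, at 1.44 and 1.38 in KO against 1.39 and 1.29 in WT, a difference of 0.07 (SE 0.18, 95% interval -0.37 to 0.51). A second probe set listing Gnas also lists another gene and was not used. Gnas has several annotated starts, and which of its transcripts the probe set reads was not tested. Its difference may therefore not stand for Gs alpha.

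The adenylyl cyclases, which turn ATP into cAMP, had 9 members, of which 5 exceeded background: Adcy4, Adcy5, Adcy6, Adcy7 and Adcy9. Adcy6, inhibited by calcium, read 4.99 and 5.58 in KO against 5.24 and 5.26 in WT. The WT arrays lay between the KO arrays, and the difference was 0.03 (SE 0.25, 95% interval -0.57 to 0.64). Adcy5, its closest relative, had the largest difference of the family. It read 3.0 and 1.97 in KO against 1.89 and 1.77 in WT, a log2 difference of 0.65 (SE 0.35, 95% interval -0.20 to 1.51, limma adjusted p = 0.886). The KO arrays were both above the WT arrays, but KO replicate 1 carried most of the gap, and without it the difference was 0.14. Adcy9, a forskolin-insensitive form, read 3.84 and 4.56 in KO against 4.72 and 4.51 in WT. KO replicate 1 stood apart there too, on the low side. Adcy4 read 2.76 and 2.08 in KO against 2.63 and 2.56 in WT, and Adcy7 read 0.80 and 1.39 in KO against 1.26 and 1.46 in WT.

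The cyclases varied more within KO than within WT. Among the 5 above background, the median gap between the arrays of a genotype was 0.68 in KO and 0.12 in WT, where over all 11023 genes above background it was 0.25 in KO and 0.24 in WT. Adcy3 shares its listed probe set with another gene and was not analysed here. Adcy1, Adcy2, Adcy8 and the soluble cyclase Adcy10 were above background on 0 of 4 arrays.

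PKA consists of catalytic and regulatory subunits, and both catalytic subunits had close values on all 4 arrays. Prkaca, the C alpha subunit, read 8.16 and 8.04 in KO against 7.91 and 8.001 in WT. Its KO arrays were both above its WT arrays by a small margin, with a difference of 0.15 (SE 0.18, 95% interval -0.30 to 0.60). It ran from 0.08 to 0.21 without each array in turn, and was 0.38 with the mean of its 2 probe sets in place of the brighter one. Prkacb, the C beta subunit, read 5.14 and 5.44 in KO against 5.19 and 5.13 in WT, a difference of 0.13 (SE 0.20, 95% interval -0.36 to 0.61).

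Among the regulatory subunits, RII beta and RII alpha gave different pictures. Prkar2b, the RII beta subunit and the main regulatory subunit of adipose tissue, read 8.93 and 8.76 in KO against 8.88 and 8.79 in WT. The arrays interleaved, and the difference was 0.01 (SE 0.19, 95% interval -0.45 to 0.46). Prkar2a, the RII alpha subunit, read 3.34 and 3.56 in KO against 3.87 and 4.33 in WT. Both KO arrays were below both WT arrays, the KO mean was 3.45 ± 0.15 and the WT mean 4.10 ± 0.33 (SD, n = 2 each), and the log2 difference was -0.65 (SE 0.23, 95% interval -1.22 to -0.08), or 0.638-fold. It had a limma unadjusted p of 0.0317 and an adjusted p of 0.872, so it did not pass. It stayed negative without each array in turn, between -0.88 and -0.42. In the same arrays the summed skeletal muscle signal was 264.1 and 114.3 in KO against 383.8 and 620.8 in WT, and its part in the Prkar2a difference was not tested.

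Prkar1a, the RI alpha subunit present in most tissues, read 3.52 and 3.76 in KO against 3.84 and 3.86 in WT. Both KO arrays were lower, by a log2 difference of -0.21 (SE 0.19, 95% interval -0.68 to 0.26). It came to -0.09 without KO replicate 1 and to -0.33 without KO replicate 2. Prkar1b, the RI beta subunit known from brain, exceeded background on 1 array of each genotype. Rapgef3 encodes EPAC1, a cAMP-activated exchange factor for Rap that works beside PKA. It read 2.07 and 1.85 in KO against 2.18 and 1.94 in WT, a difference of -0.10 (SE 0.20, 95% interval -0.60 to 0.39).

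A-kinase anchoring proteins place PKA beside its substrates. Of 16 members, 11 exceeded background on all 4 arrays and 5 on none, these being Akap3, Akap4, Akap6, Akap14 and Akap17b, of which Akap3 and Akap4 are known from sperm and Akap6 from muscle and heart. Akap1, which anchors PKA to the outer mitochondrial membrane, read 7.29 and 7.42 in KO against 7.07 and 6.98 in WT. Its KO arrays were both higher, and the difference of 0.32 (SE 0.18, 95% interval -0.13 to 0.77, limma adjusted p = 0.888) was larger than the gap of 0.13 between the KO arrays and that of 0.09 between the WT arrays. It ran from 0.26 to 0.39 without each array in turn. Akap9, an anchor at the centrosome and Golgi, read 5.09 and 5.11 in KO against 4.94 and 4.83 in WT, a difference of 0.22 (SE 0.18). Akap11, which also binds the kinase GSK3, read 4.30 and 4.26 in KO against 4.65 and 4.40 in WT, a difference of -0.24 (SE 0.19) that ran from -0.37 to -0.12 without each array in turn. The other 8 anchoring proteins above background, which were Akap2, Akap5, Akap7, Akap8, Akap8l, Akap10, Akap12 and Akap13, had overlapping arrays and differences from -0.31 for Akap5 to 0.18 for Akap8. Unlike the cyclases, the anchoring proteins above background had the smaller median gap in KO, 0.09, and 0.32 in WT.

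**Figure D2:**
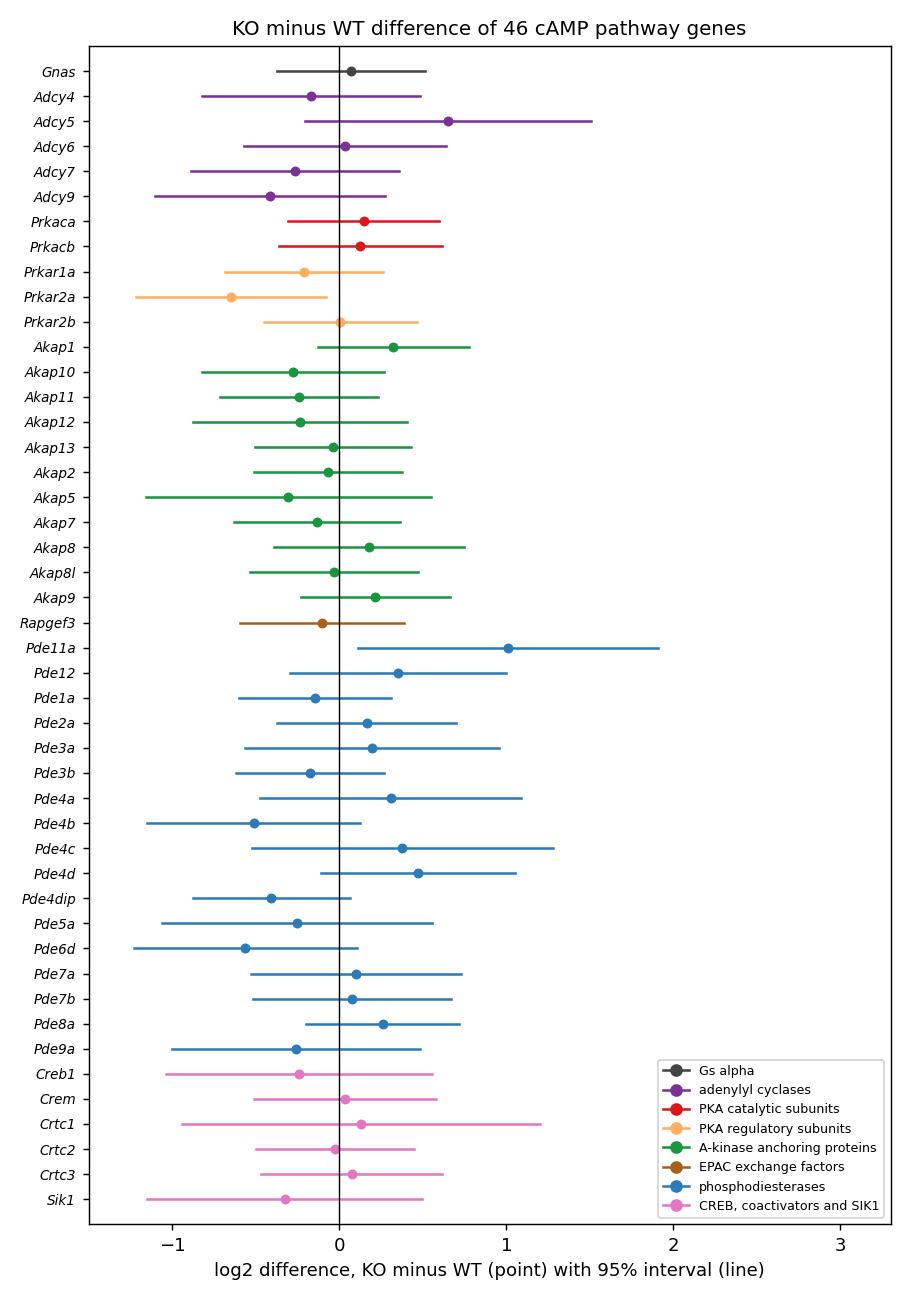
Log2 difference, KO minus WT, of the 46 members above background (points) with the 95% interval from limma (lines), coloured by family. The intervals of 44 members include 0, and those of Pde11a (0.11 to 1.91) and Prkar2a (-1.22 to -0.08) do not before adjustment.

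The rule by gene symbol took in 26 genes named as phosphodiesterases, of which 17 exceeded background. Pde4dip encodes myomegalin, a scaffold protein, and Pde12 a mitochondrial enzyme that acts on RNA, so neither degrades cyclic nucleotides. Pde3b, the insulin-activated enzyme that lowers cAMP in adipocytes, read 8.26 and 8.17 in KO against 8.40 and 8.38 in WT. Both KO arrays were lower, by -0.18 (SE 0.18, 95% interval -0.62 to 0.27), a small difference with tight replicates. Its relative Pde3a read 2.60 and 1.81 in KO against 1.82 and 2.19 in WT, with KO arrays to either side of the WT arrays.

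The Pde4 enzymes hydrolyse cAMP alone, and 3 of their genes sat close to background. Pde4d read 1.02 and 1.56 in KO against 0.80 and 0.83 in WT, a difference of 0.47 (SE 0.24, 95% interval -0.11 to 1.05). Pde4b read 0.57 and 1.11 in KO against 1.54 and 1.17 in WT, a difference of -0.51 (SE 0.26, 95% interval -1.15 to 0.12), with 1 of 2 KO arrays above background. The KO arrays were both above the WT arrays for Pde4d and both below them for Pde4b, and neither gene passed the test. Without each array in turn, the Pde4d difference ran from 0.20 to 0.74 and the Pde4b difference from -0.78 to -0.24, both set by leaving out 1 or the other KO array. Pde4a, further above background, read 3.96 and 4.77 in KO against 3.85 and 4.26 in WT, and Pde4c exceeded background on 3 of 4 arrays.

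Pde11a, which hydrolyses both cAMP and cGMP, had the largest difference of all 67 members. It read 2.18 and 1.45 in KO against 1.22 and 0.39 in WT, means of 1.81 ± 0.51 in KO and 0.80 ± 0.59 in WT (SD, n = 2 each). The log2 difference was 1.01 (SE 0.37, 95% interval 0.11 to 1.91), or 2.02-fold, with a limma unadjusted p of 0.0332 and an adjusted p of 0.872. Both KO arrays were above both WT arrays, WT replicate 2 did not exceed background, and the gaps within a genotype, 0.73 in KO and 0.83 in WT, were nearly as large as the difference. It ran from 0.59 to 1.43 without each array in turn. The summed liver marker signal was 94.1 and 45.6 in KO against 36.0 and 26.3 in WT in the same arrays, and its part in the difference was not tested.

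The further genes named as phosphodiesterases had smaller differences than Pde11a. Pde8a, a cAMP-specific enzyme resistant to the common inhibitor IBMX, read 5.47 and 5.31 in KO against 5.18 and 5.08 in WT, a difference of 0.26 (SE 0.19, 95% interval -0.20 to 0.72). Pde6d, which in spite of its name is a carrier of prenylated proteins, read 2.93 and 3.51 in KO against 3.58 and 3.99 in WT, a difference of -0.56 (SE 0.27, 95% interval -1.23 to 0.11). It came to -0.27 without KO replicate 1 and to -0.85 without KO replicate 2. The myomegalin gene Pde4dip read 2.09 and 1.87 in KO against 2.34 and 2.44 in WT, a difference of -0.41 (SE 0.19, 95% interval -0.88 to 0.06). In all 3 of these genes the genotypes did not overlap, and none passed the test. Pde2a, stimulated by cGMP, and Pde7b, specific for cAMP, had differences of 0.16 and 0.08 with overlapping arrays. So did the cGMP enzymes Pde5a (-0.25) and Pde9a (-0.26), the cAMP enzyme Pde7a (0.10) and the RNA enzyme Pde12 (0.35). Pde1a, activated by calcium and calmodulin, read 4.01 and 4.01 in KO against 4.07 and 4.24 in WT, a difference of -0.15 without overlap. Its relatives Pde1b and Pde1c exceeded background on 1 array and on 0 arrays, Pde8b on 0 and Pde10a on 2. The catalytic and inhibitory subunits of the photoreceptor enzyme, Pde6a, Pde6b, Pde6c and Pde6g, were above background on 0 of 4 arrays, and Pde6h on 1.

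At the nuclear end of the pathway, all 6 members exceeded background on all 4 arrays and all 6 overlapped between the genotypes. Over all genes above background, 6799 of 11023 overlapped. Creb1, the transcription factor phosphorylated by PKA, read 3.82 and 4.76 in KO against 4.52 and 4.55 in WT, a difference of -0.24 (SE 0.32, 95% interval -1.04 to 0.55). KO replicate 1 alone was low, and without it the difference was 0.23. Sik1, a kinase gene that CREB induces and whose product restrains the CREB coactivators, followed the same layout, at 4.27 and 5.25 in KO against 5.03 and 5.13 in WT. Its difference was -0.33 (SE 0.34, 95% interval -1.15 to 0.50), and 0.16 without KO replicate 1. Crem, which gives both activators and the inducible repressor ICER, read 1.15 and 1.51 in KO against 1.44 and 1.15 in WT, a difference of 0.04 (SE 0.22).

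The coactivators Crtc2 and Crtc3, which move into the nucleus when SIK kinases are inhibited by PKA, had differences of -0.02 (95% interval -0.50 to 0.45) and 0.07 (95% interval -0.47 to 0.62). Crtc2 read 4.12 and 4.34 in KO against 4.20 and 4.31 in WT. Crtc3 read 4.71 and 4.54 in KO against 4.76 and 4.34 in WT. Crtc1 varied as much within KO (2.20 and 3.09) as within WT (3.04 and 1.99).

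Across the 67 members, the genotypes did not overlap in 12 with KO above WT, where 19.4% of all genes were so placed, and in 10 with KO below WT, where 15.8% of all genes were. The 12 are 17.9% of the members and the 10 are 14.9%, and both directions together took in 22 members, where 35.2% of all genes did not overlap. These shares are near the background. The difference exceeded the gap within both genotypes in 13 members (19.4%), where it did so in 22.6% of all genes. Of the 46 above background, 8 (17.4%) met this, where 25.7% of all genes above background did: Prkaca, Prkar2a, Akap1, Akap9, Pde3b, Pde4dip, Pde8a and Pde11a. Of the 46 above background, 20 (43.5%) kept their sign without each array in turn, where 51.9% of all genes above background did.

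**Figure D3:**
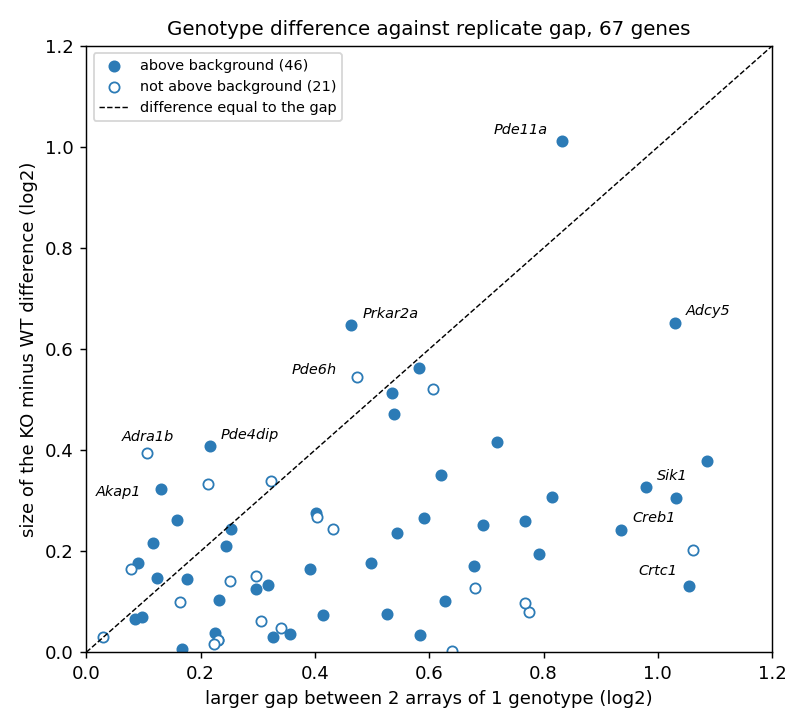
Size of the KO minus WT log2 difference (vertical axis) against the larger of the 2 gaps between arrays of 1 genotype (horizontal axis, log2) for the 67 members, filled where the gene is above background. Of the points, 13 lie above the dashed line where difference and gap are equal, and Adcy5, Sik1, Creb1 and Crtc1 lie far to the right of it.

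The CRE is the sequence TGACGTCA, to which CREB binds, and TGACG on either strand is its core. Promoter windows from RefSeq (build GRCm38.p6, 250 bases before to 50 after an annotated gene start) were found for 53 of the 67 members, in 99 windows. The full letters stood in 2 of these windows (2.02%), both of Prkar1a, and in 588 of all 32851 windows (1.79%). The core on either strand stood in 22 member windows (22.2%), and in 20.8% of all windows. The components of the pathway that had a window thus held these letters about as often as promoters in general. Adcy6, Pde3b, Crtc2, Crem and Sik1 were among the members without a window, so the shares do not cover them. Among the genes linked to cAMP induction in brown fat, described next, 24 had windows, 29 in all, and 2 of the windows held the full letters (6.90%), those of Dio2 and Dusp1. The core stood in 18 of the 29 (62.1%). These genes were chosen for their link to cAMP induction, so their share is no independent evidence. The full letters contain the core on each strand, and a match is a description of the sequence only. A promoter of each of the 3 genes that hold the full letters is printed. Whether the letters bear on the measured differences was not tested. Capitals mark the CRE and its core.
Prkar1a, chr11:109650612-109650911, plus strand: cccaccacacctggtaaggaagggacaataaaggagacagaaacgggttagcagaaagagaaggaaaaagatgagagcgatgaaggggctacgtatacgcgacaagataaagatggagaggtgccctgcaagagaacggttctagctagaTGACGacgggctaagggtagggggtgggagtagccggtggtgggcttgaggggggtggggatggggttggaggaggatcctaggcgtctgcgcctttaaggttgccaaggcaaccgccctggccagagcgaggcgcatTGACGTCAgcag
Dio2, chr12:90738989-90739288, minus strand: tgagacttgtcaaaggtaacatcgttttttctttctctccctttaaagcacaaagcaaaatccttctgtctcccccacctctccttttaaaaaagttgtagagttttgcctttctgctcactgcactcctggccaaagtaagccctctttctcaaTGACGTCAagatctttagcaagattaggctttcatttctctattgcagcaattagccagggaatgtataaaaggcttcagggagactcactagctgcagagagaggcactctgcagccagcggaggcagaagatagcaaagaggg
Dusp1, chr17:26508423-26508722, minus strand: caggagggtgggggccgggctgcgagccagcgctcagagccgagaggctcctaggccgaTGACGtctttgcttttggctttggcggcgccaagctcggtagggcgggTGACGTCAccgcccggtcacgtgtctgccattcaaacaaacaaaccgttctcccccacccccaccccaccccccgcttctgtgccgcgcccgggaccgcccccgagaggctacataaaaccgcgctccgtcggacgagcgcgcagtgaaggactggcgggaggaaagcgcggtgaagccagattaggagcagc

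The CRE letters begin 95 bases before the annotated start of Dio2 and 143 bases before that of Dusp1. In Prkar1a they begin 38 bases after the annotated gene start from which the window shown was cut, and 49 bases before a second annotated start. The log2 differences of the 3 genes were 2.03 for Dio2 (SE 0.23), 0.40 for Dusp1 (SE 0.28) and -0.21 for Prkar1a (SE 0.19). Dusp1 read 6.72 and 7.48 in KO against 6.73 and 6.66 in WT, so its arrays overlapped. The 95% intervals of Dusp1 (-0.29 to 1.10) and Prkar1a (-0.68 to 0.26) both include 0.

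Arrays do not measure cAMP or PKA activity, so the output of the pathway was not read directly. In its place stood a list of 33 genes linked to induction by cAMP or adrenergic stimulation, of which 4 are members. In KO 19 of them were higher and 14 lower, with a median log2 difference of 0.11, and 0 passed the adjusted threshold. At an unadjusted p under 0.05, 2 were higher (Dio2 and Ucp1) and 4 lower (Per1, Id1, Klf4 and Bmp8b), which is 18.2% of the list, where 5.56% of all genes had such a p. The list was drawn up with the differences of Dio2 and Ucp1 already known, so its share is no independent evidence. Dio2, the deiodinase that activates thyroid hormone inside brown fat, read 4.30 and 4.71 in KO against 2.63 and 2.32 in WT, a difference of 2.03 (SE 0.23, limma adjusted p = 0.736). Ucp1, the uncoupling protein, had a difference of 0.55 (SE 0.18). The clock gene Per1, a rapid CREB target, read 4.89 and 5.02 in KO against 5.48 and 5.65 in WT, a difference of -0.61 (SE 0.19).

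Id1, a repressor of differentiation factors, read 3.60 and 4.62 in KO against 5.26 and 4.98 in WT. The transcription factor gene Klf4 read 1.13 and 1.85 in KO against 2.60 and 2.40 in WT. Both had KO arrays below WT arrays, with differences of -1.01 each (SE 0.35 for Id1 and 0.28 for Klf4). Without each array in turn, these ran from -1.52 to -0.51 for Id1 and from -1.37 to -0.64 for Klf4. Bmp8b, a secreted factor that heightens the brown fat response to noradrenaline, was not above background in KO and at least 1.09-fold higher in WT. Many genes of the list varied between the arrays of 1 genotype. The gap was larger within KO in 24 of the 33 (72.7%), where it was in 51.5% of all genes. Egr1, an immediate early gene, read 4.28 and 5.82 in KO against 5.07 and 4.58 in WT, and Atf3, another, read 1.49 and 4.15 in KO against 3.45 and 3.79 in WT. KO replicate 1 was the lowest array for both. The same held for the immediate early gene Nr4a3, which read 1.05 and 2.60 in KO against 1.89 and 1.21 in WT. This array was not the lowest for the immediate early genes Fos, Fosb, Junb, Nr4a1 and Nr4a2, of which Fosb and Nr4a2 varied more within WT. KO replicate 1 was the lowest array for 16 of the 33 genes (48.5%), where it was for 25.3% of all genes. The macrophage marker sum was also lowest on that array, 150.7, and its part in these values was not tested.

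**Figure D4:**
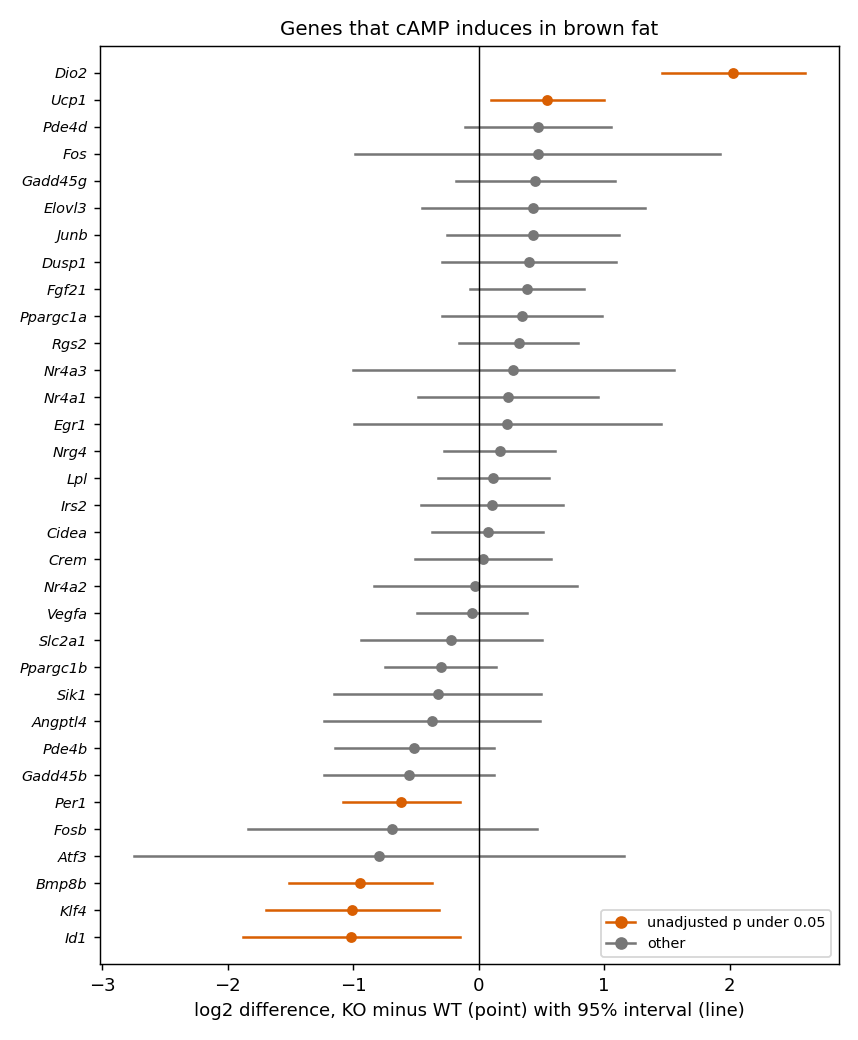
Log2 difference, KO minus WT, of 33 genes linked to induction by cAMP or adrenergic stimulation (points) with 95% intervals from limma (lines), ordered by difference. Orange marks the 6 genes with an unadjusted p under 0.05, of which Dio2 and Ucp1 were higher and Per1, Bmp8b, Klf4 and Id1 lower in KO.

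Receptors other than the adrenergic ones also feed into cAMP. Of 23 genes for Gs-coupled receptors, 14 were higher and 9 lower in KO, with a median difference of 0.04. Of these, 1 (4.35%), the thyrotropin receptor gene Tshr, had an unadjusted p under 0.05, where 5.56% of all genes did. It read 4.45 and 4.35 in KO against 2.90 and 2.49 in WT, a difference of 1.70 (SE 0.22, 95% interval 1.17 to 2.23, limma adjusted p = 0.736). Among these receptor genes 10 exceeded background.

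Of 14 genes for receptors that couple to Gi and lower cAMP, 10 were higher and 4 lower in KO, with a median difference of 0.21, and 9 of the 14 exceeded background. An unadjusted p under 0.05 was found for 3 (21.4%), where 5.56% of all genes had such a p. All 3 were higher in KO, where 2.89% of all genes were higher at that p. The list was chosen with earlier results of these data known, so its share is no independent evidence. Ptger3, the EP3 prostaglandin receptor, which restrains lipolysis in fat, read 6.31 and 5.79 in KO against 5.36 and 5.35 in WT, a difference of 0.70 (SE 0.23, 95% interval 0.13 to 1.27). Sucnr1, the succinate receptor, read 2.79 and 2.63 in KO against 2.32 and 1.96 in WT, a difference of 0.57 (SE 0.21, 95% interval 0.05 to 1.09). Ffar3, a short-chain fatty acid receptor, was not above background on any array. Ptger3, Sucnr1 and Ffar3 each had a limma adjusted p of 0.872, so none passed. Without each array in turn, the Ptger3 difference ran from 0.44 to 0.96 and the Sucnr1 difference from 0.39 to 0.75.

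The remaining lists, also chosen with earlier results of these data known, held few genes with an unadjusted p under 0.05. None of 21 G protein subunits and regulators had one, among them the inhibitory subunit Gnai1 at -0.41 (SE 0.19), the receptor kinase Grk3 at 0.43 (SE 0.20) and the Gs chaperone Ric8b at 0.25 (SE 0.19). Nor did any of 13 genes for other CREB family proteins and SIK kinases (median difference 0.01) or of 11 genes for the p38 and mTOR branch (median 0.10). Of 16 PKA inhibitors, phosphatases and cAMP effectors, of which 10 exceeded background, 1 was higher and 1 lower at that p, 12.5% of the list where 5.56% of all genes had such a p. Popdc2, a cAMP-binding membrane protein known from striated muscle, read 3.43 and 3.31 in KO against 3.74 and 3.94 in WT, a difference of -0.47 (SE 0.19), alongside the muscle marker sums given above, whose part was not tested. Hcn4, a cAMP-gated channel, exceeded background on 1 KO array only. Pkia, the PKA inhibitor alpha, read 2.61 and 3.63 in KO against 4.27 and 3.54 in WT and did not pass.

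The 10 genes for proteins of lipolysis, where PKA acts by phosphorylation, were all above background and none had an unadjusted p under 0.05. Hormone-sensitive lipase, Lipe, had a difference of -0.03 (95% interval -0.47 to 0.41), and Pnpla2, the adipose triglyceride lipase, one of -0.02 (-0.58 to 0.53). Their partners Plin1, the perilipin of the droplet surface, and Abhd5, the lipase coactivator, had differences of 0.27 (SE 0.18) and 0.32 (SE 0.19), with KO arrays above WT arrays in both. Across the list, 6 of the 10 genes had KO arrays above WT arrays, where 19.4% of all genes did. Another 2 had KO arrays below WT arrays, where 15.8% of all genes did. The list was chosen with earlier results of these data known, so these shares are no independent evidence. The abundance of these transcripts says nothing of the phosphorylation of their products, which arrays do not measure.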

How the data were processed

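Total RNA from 4 BAT samples was labelled with biotin and hybridised to whole-transcript arrays, per the labels' protocols. The authors deposited normalized log2 values for 41345 probe sets. RMA, oligo and limma are named without roles in the submitters' processing notes. Base 2 is taken because RMA, where it was used, gives log2 values, though these values lie lower than RMA usually gives. The background step of RMA would compress the differences of dim probe sets. Genome build and versions are not given in the sources used here.

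The platform annotation gave 23521 probe sets 1 symbol, 1814 several and 16010 none. The brightest probe set per gene was kept, and 3 members had more than 1. KO and WT were compared with limma (version 3.58.1 under R 4.3.3; lmFit, eBayes). The test was two-sided and used neither a block nor a filter, with Benjamini-Hochberg adjustment over 22180 genes. The threshold was an adjusted p under 0.05. A fold against a genotype not above background on either array is a lower bound, in which each dim array enters at background or at its own value, whichever is higher. The fit was tested on simulated data.

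Members and lists were chosen with earlier results of these data known. Named members were a panel of 22 genes (17 in the table), those with an unadjusted p under 0.05, and up to 6 per direction by size among those above background and not overlapping. Up to 4 genes with such a p were named per list, and other genes were chosen after their values were seen.

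Promoter sequences come from RefSeq (GRCm38.p6). Of the members, 66 matched RefSeq by Entrez ID. Alternatives are given in the closing section.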

Additional observations from a re-analysis of the deposited data

How the results depend on the processing

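The 12 alternatives were the replicate block, 2 filters on dim genes, the mean of all probe sets, repeated quantile normalization, median centring, a mean trend, a robust prior and each array left out in turn. No member had an adjusted p under 0.05 in any of them, and the limited number of arrays sets the precision. The count of all genes past the threshold was 1 with the replicate block, with median centring and with the mean trend, and ran from 0 to 15 without single arrays, the 15 without WT replicate 1. Members with an unadjusted p under 0.05 numbered 2 lower with the replicate block, 2 higher with quantile normalization and with median centring, and 3 higher with the mean trend. Without single arrays they ran from 0 to 4 higher and from 0 to 5 lower, with both highest counts without KO replicate 2. Each filter left 46 members, so 22 were higher and 7 had KO arrays above WT arrays. With 3 arrays, non-overlap is easier to reach, and the counts ran from 19 to 28 higher and from 17 to 23 lower. Of 24 members named by rule, 9 changed sign without some array: Adcy6 (-0.26 to 0.33), Creb1 (-0.71 to 0.23), Crem (-0.14 to 0.21), Crtc2 (-0.14 to 0.091), Crtc3 (-0.13 to 0.28), Prkacb (-0.022 to 0.27), Prkar2b (-0.078 to 0.090), Rapgef3 (-0.22 to 0.012) and Sik1 (-0.82 to 0.16). Prkar2b was also -0.0081 with quantile normalization. The labels number the replicates without saying that they pair, so no pairing was assumed. Deviations from the group means correlated at -0.07 over all genes between same-numbered arrays, which cannot exclude a pairing. With the replicate block, Pde11a had a limma unadjusted p of 0.00303 and an adjusted p of 0.743. Pde6d had an unadjusted p of 0.0428 and an adjusted p of 0.932 in that fit.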

Other observations

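The 3 members with a second probe set showed how far a value rests on the probe set read. Prkaca's dimmer probe set read 1.81 and 2.63 in KO against 2.20 and 1.02 in WT, overlapping between genotypes, where its brighter one did not, and the mean of both gave a difference of 0.38 in place of 0.15. The dimmer probe sets of Rapgef3 (0.42 and 0.65 in KO against 0.60 and 0.91 in WT) and Pde7a (0.22 and 0.41 in KO against 0.68 and -0.16 in WT) lay near or below background.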
